A study of Brassica napus with 6 samples.

Results

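Plants of the genus Brassica carry, beside the miRNAs shared by most land plants, families of narrower distribution, some of them described mainly from this genus and others, such as miR824, also from Arabidopsis. The members described here are the known miRNAs named miR824, miR860, miR1140, miR1885, miR6028 to miR6036, miR9409, miR9553 or miR9569. The rule goes by name and uses no measured values, but it was set with earlier results of these data known. Of these 16 family numbers, 8 occurred in the lists of known miRNAs, each with 1 row: bna-miR6029, bna-miR1140, bna-miR6030, bna-miR9553, bna-miR6028, bna-miR6034, bna-miR9409 and bna-miR9569. The prefix bna stands for B. napus and is left out below. They make up 8 of 74 known miRNAs and 8 of 401 listed miRNAs when predicted ones are included. In the degradome, which reads the 5′ ends of cut transcripts, the same numbers accounted for 17 of 1089 records, 16 of miR6030 and 1 of miR1140. How widely the 8 listed families occur outside Brassica was not tested.

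The study compared shoot apices of normal Brassica napus (oilseed rape) with those of a form named rod-like, grown in the same field and sampled at early bolting at an age of 3 months. Each RNA sample pooled the apices of 6 plants, and the labels give no cultivar, allele or treatment for either form. Small RNAs were counted in 2 files per plant type, and the degradome in 1 library per plant type. The rod-like small RNA files are numbered 1 and 2 and the rod-like degradome library 3, so whether they share an RNA sample is not known. As the lists hold miRNAs only, the shoot apex label was not checked with marker genes. Listed counts per file summed to between 625795 and 713637, which is not the depth of the libraries. Both files of a plant type agreed within the sampling noise, so they count here as a single sample. For the 8 miRNAs alone, chi-square divided by its degrees of freedom was 0.505 between the normal files (p = 0.832, chi-square test) and 0.360 between the rod-like files (p = 0.926, chi-square test). Each plant type therefore has n = 1, and the values below compare these libraries and not a spread between plant pools.

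A plant miRNA guides an ARGONAUTE protein to a nearly complementary stretch of a transcript, which is then cut opposite the middle of the miRNA. The 3′ part of the cut transcript bears a 5′ monophosphate, and this end is what degradome sequencing captures. Young, lineage-restricted miRNAs are known as a class for low expression and few targets. Most plant miRNAs are 21 nt long, and those of 22 nt are known in Arabidopsis for starting secondary small RNAs from the transcripts they cut. Among the families named above without a row here, miR824 regulates the MADS-box gene AGL16 in Arabidopsis and miR1885 targets a TIR-NBS-LRR resistance gene in Brassica rapa. For the 8 miRNAs listed, the sources used here annotate no role.

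The mature sequences of miR6030 and miR1140 stood in the degradome records and are shown because their sites follow from them, with the seed, bases 2 to 8, in capitals and T written for U.
bna-miR6030: tCCACCCAtaccatacagaccc
bna-miR1140: aACAGCCTaaaccaatcggag
The first is 22 nt long and the second 21 nt. Of 39 named miRNAs with a sequence in these records, 31 were 21 nt and 3 were 22 nt long. Neither seed occurred in any of the 215 other miRNA names of the records. The longest run of bases shared with any other name was 8 for miR6030 and 7 for miR1140. For the other 6 members the records used here held no sequence, and none is shown.

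The target sites of miR6030 are shown because they carry the pairing described below. They fell into 6 distinct sequences on 9 transcripts. Each is written 5′ to 3′ in lower case, and capitals mark bases that form a G:U wobble or a mismatch with the miRNA. The first line gives the full complement of miR6030 for comparison.
full complement: gggtctgtatggtatgggtgga
BnaAnng03870D, BnaC08g21550D and BnaCnng64090D: gggtTtgtatggtatgggtgga
BnaC08g15510D and BnaC08g41710D: gggtctCtatggtatgggtgga
BnaC08g48650D: AggtTtgtatggtatgggtgga
BnaC08g41330D: AggtctgtatggtatgggtggG
BnaA01g35670D: gggtTtgtatggtatgggGgga
BnaCnng50410D: ggAttAtaCggtatgggtgga
The single site listed for miR1140, on BnaA01g02940D, is given in the same way.
BnaA01g02940D: ctAcgGttgCtttggctgtt

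The levels of the 8 miRNAs in normal apices spanned 20.2 to 3783 RPM, where RPM stands for reads per 1000000 listed miRNA reads after TMM scaling. The most abundant was miR6029, whose normal files held 2435 and 2425 counts and whose rod-like files held 2051 and 2100. It ranked 16th of the known miRNAs by mean count. Its rod-like values both lay below its normal values. For miR1140 the normal counts were 710 and 718 and the rod-like counts 1311 and 1295. For miR6030 they were 427 and 450 against 1006 and 969. In both of these the rod-like files were the higher ones.

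The counts of miR9553 were 129 and 128 in normal apices, against 354 and 329 in the rod-like form. Those of miR6028 were 231 and 223 against 243 and 236. These counts are unscaled, and the rod-like files also held the larger listed counts (712169 and 713637 against 625795 and 629101). After scaling on all listed miRNAs, miR9553 was still separated between plant types. The scaled values of miR6028 overlapped, at 364 and 343 RPM in normal against 348 and 339 RPM in rod-like apices. Among the 3 least abundant members, miR6034 had 28 and 17 counts in normal and 40 in each rod-like file. For miR9409 the counts were 16 and 17 against 40 and 44, and for miR9569 they were 13 and 13 against 36 and 34. The rod-like counts of these 3 exceeded the normal ones in every file, also after scaling. The member whose normal files differed most in relation to their mean was miR6034. The share of all miRNAs whose rod-like and normal files separated was not counted, so whether such separation is unusual is not known.

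**Figure D1:**
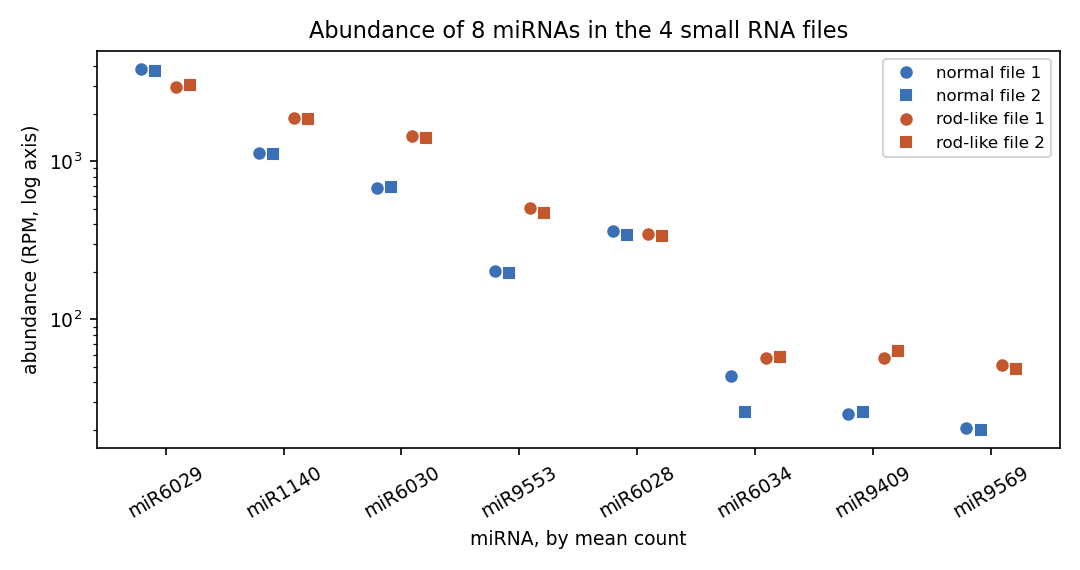
Abundance of each miRNA (RPM, log axis) in the 4 small RNA files, with blue for normal and orange for rod-like, circles for file 1 and squares for file 2. The files of a plant type lie close together except for the normal files of miR6034, and miR6029 is the only member with both rod-like points visibly below the normal ones.

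Within a plant type the order of levels was clear among the abundant members and not among the rare ones. In normal apices miR6029 (3783 RPM, exact Poisson 95% counting interval 3678 to 3891) led miR1140 (1112 RPM, 1055 to 1171). It was followed by miR6030 at 683 RPM, miR6028 at 353 RPM and miR9553 at 200.1 RPM, with no overlap of intervals between neighbours. In rod-like apices the first 3 kept their places, at 2980.4, 1871 and 1418 RPM. There miR9553, at 490.4 RPM (454 to 529), stood above miR6028, at 344 RPM (314 to 376), so these 2 exchanged places. In both plant types miR6034, miR9409 and miR9569 came last, between 20.2 and 60.3 RPM. The intervals of neighbours among these 3 overlapped, so their order was not resolved beyond counting error.

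By counting intervals on mean counts per file, 5 of the 8 miRNAs were higher in rod-like apices and 1 was lower. Such intervals included a ratio of 1 for miR6034 and miR6028. The share of all miRNAs by this rule, which sets no fold limit, was not counted. The rod-like to normal ratio, with its exact conditional 95% interval for counting error, was 2.48 (1.28 to 5.11) for miR9569, 2.45 (1.995 to 3.03) for miR9553 and 2.35 (1.30 to 4.43) for miR9409. It was 2.08 (1.85 to 2.33) for miR6030 and 1.68 (1.54 to 1.85) for miR1140. For miR6034 the ratio of 1.64 had an interval that included 1 (0.955 to 2.88). For miR6028 it was 0.973 (0.808 to 1.17), and for miR6029 it was 0.788 (0.743 to 0.836). The narrow interval of miR6029 against the wide one of miR9569 follows from mean counts of 2430 and 13 in the normal files. All these intervals were computed on the mean count per file, and intervals on the summed counts of both files would be narrower. Whether that of miR6034 would then still include 1 was not computed. PCR reads are not independent molecules, so these intervals cover counting error only.

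Counted by size, 5 of the 8 were at least 1.5-fold higher with an interval on mean counts above 1, and none was 1.5-fold lower. Of the 401 listed miRNAs, 10 did not pass a filter on low counts and were not tested. Over all miRNAs tested, 9.46% were higher by this rule and 3.58% lower, or 13% in either direction. Most of these are predicted miRNAs, of which 4.60% were higher by the rule, against 33.8% of the known miRNAs and 42.9% of a list of 7 other Brassicaceae miRNAs described below. At 2-fold the count of members was 4. By edgeR's quasi-likelihood test on the 4 files, with Benjamini-Hochberg adjustment over all miRNAs tested, 7 of the 8 passed an adjusted p of 0.05, with 6 higher and 1 lower. The shares over all miRNAs were 28.1% past the threshold, 16.6% higher and 11.5% lower. For miR6028 the adjusted p in this edgeR test was 0.83. These p-values rest on the spread between files that may be technical. The edgeR call of miR6034 (adjusted p = 0.0315) was the weakest and was lost in 7 of 10 alternatives, among them leaving out normal replicate 2, where its log2 fold change went from 0.71 to 0.40. Without normal replicate 1 that value was 1.13. Over the alternatives its adjusted p ranged from 0.00876 to 0.482.

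The size of every ratio depended on the scaling. When the scale was set on the known miRNAs alone, log2 fold changes of the miRNAs tested moved by -0.50 at the median. The ratio then became 1.47 (1.31 to 1.65) for miR6030, 1.19 (1.09 to 1.31) for miR1140 and 1.74 (1.41 to 2.15) for miR9553. It became 0.559 (0.527 to 0.593) for miR6029 and 0.690 (0.573 to 0.831) for miR6028. For miR6034, miR9409 and miR9569 the ratios were 1.16, 1.66 and 1.76, with intervals on mean counts that included 1. Narrower intervals on summed counts were not computed. No member crossed 1 under this scaling. Those at least 1.5-fold higher were miR9553, miR9409 and miR9569, of which miR9553 alone had an interval above 1, and miR6029 was 1.79-fold lower.

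**Figure D2:**
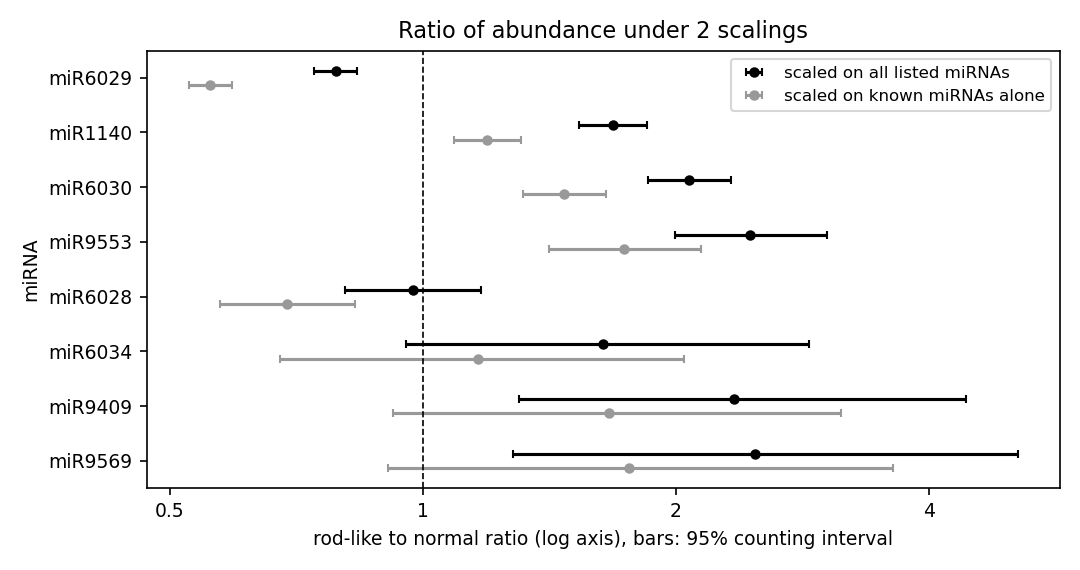
Rod-like to normal ratio of each miRNA (log axis) with 95% counting intervals, in black as scaled on all listed miRNAs and in grey as scaled on known miRNAs alone; the dashed line marks a ratio of 1. The grey points all lie to the left of the black ones, with miR6030 at 1.47 against 2.08, and in both scalings miR6029 and miR6028 are the members below 1.

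The levels relative to miR6029 in the same file do not depend on any scaling. The count of miR1140 was 29.2% and 29.6% of that of miR6029 in normal apices, against 63.9% and 61.7% in the rod-like form. The count of miR6030 was 17.5% and 18.6% of it in normal apices, against 49.0% and 46.1% in the rod-like form. Both relative levels were more than doubled, with ratios between plant types of 2.14 (95% counting interval on the log scale 1.92 to 2.38) and 2.64 (2.32 to 2.99). The relative level of miR9553 differed by a ratio of 3.11 (2.52 to 3.84), that of miR9569 by 3.15 (1.66 to 5.97), that of miR9409 by 2.98 (1.68 to 5.28) and that of miR6034 by 2.08 (1.24 to 3.50). The smallest was that of miR6028, at 1.24 (1.02 to 1.49). All 7 ratios share the counts of miR6029, so they are not independent of one another.

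Of the reads of the 8 miRNAs, miR6029 supplied 61.0% and 60.8% in normal apices, against 40.4% and 41.6% in the rod-like form. The share of miR1140 was 17.8% and 18.0% in normal against 25.8% and 25.7% in rod-like files. That of miR6030 was 10.7% and 11.3% against 19.8% and 19.2%. The 8 together took between 0.634% and 0.713% of the listed counts in all 4 files. Their summed abundance was 6212 RPM for normal and 7272 RPM for rod-like apices, a ratio of 1.17 (1.12 to 1.22). It was 0.830 (0.796 to 0.865) with scaling on known miRNAs alone, so the direction of the sum depended on the scaling. Without miR6029 the sum went from 2429 to 4291 RPM, a ratio of 1.77 (1.66 to 1.88). Leaving out miR6029, the only member called lower, raises the ratio by construction. This ratio was not computed with scaling on known miRNAs alone, which lowered every member's ratio.

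**Figure D3:**
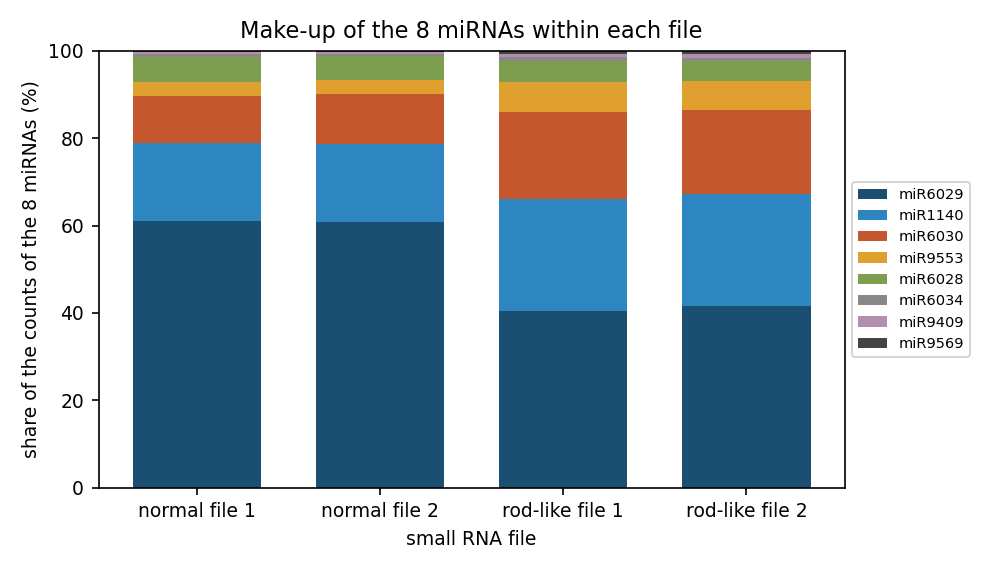
Share (%) of each miRNA in the summed counts of the 8 miRNAs, 1 bar per small RNA file. The part of miR6029 is about 61% in both normal bars and 40.4% and 41.6% in the rod-like bars, while those of miR1140, miR6030 and miR9553 are wider in the rod-like bars.

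All 8 members passed that filter. Their median log2 fold change in the edgeR fit was 0.90, against 0.41 for all 65 known miRNAs tested and -0.01 for all miRNAs tested. With scaling on known miRNAs alone it was 0.41, against -0.09 for the 65. Of the 49 conserved miRNAs tested, from 57 listed, 23 were higher and 9 lower, with a median of 0.29. Over all known miRNAs 34 were higher and 11 lower, which became 22 and 23 with scaling on known miRNAs alone. A further list held families taken as known mainly from Brassicaceae, outside the numbers above. How widely each of them occurs in other plants was not tested. Of its 7 miRNAs tested, 4 passed as higher, 1 passed as lower and 2 missed the threshold, with a median of 0.41. Among these, miR158b had a ratio of 1.88 (1.80 to 1.96) and miR5654 one of 2.88 (2.66 to 3.13). On the low side, miR858, which in Arabidopsis targets MYB factors, went from a mean of 26.5 to 4 counts, a ratio of 0.139 (0.0354 to 0.400). These counts describe the lists and were not compared by a test.

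The known miRNA nearest in log2 ratio was found for each member among 40 others with a mean count of at least 100. It was miR827, a phosphate-responsive miRNA with a ratio of 2.39, for miR9553, miR9409 and miR9569 alike, at distances of 0.04, 0.02 and 0.06 on the log2 scale. For miR6030 it was miR156j, at a distance of 0.11. For miR1140 it was miR171h, for miR6034 miR399d, for miR6029 miR169ab and for miR6028 miR166e, each within 0.03. With 1 ratio per miRNA over 2 plant types, such a likeness is a description only.

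In the degradome, cleavage records were listed for miR6030 and miR1140 and for no other member. The normal library listed 9 records, all of miR6030, and the rod-like library 8, of which 7 were of miR6030. Among the 6 members with no record was miR6029, whose small RNA level was the highest of the 8. None of the 10 target transcripts was listed with any other miRNA name in either library. Their identifiers matched no entry of the RefSeq gene table, so they are given without gene names.

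All 7 targets of miR6030 in the rod-like library were also listed in the normal library. They were BnaAnng03870D (cleavage position 536 in the transcript), BnaC08g15510D (215), BnaC08g21550D (599), BnaC08g41330D (599), BnaC08g41710D (572), BnaC08g48650D (503) and BnaCnng50410D (113). Position, score, category and P-value were the same in both libraries for each of the 7. The score follows from the miRNA and site sequences alone, so its equality is no measure of agreement. How often the values were equal over all shared pairs was not counted. The remaining 2, BnaA01g35670D (position 593) and BnaCnng64090D (position 599), were listed in the normal library alone. The 7 shared pairs were 77.8% of the miR6030 pairs of the normal library and 100% of those of the rod-like library. Counting all pairs of the members, 7 of 10 were shared, or 70% (Clopper-Pearson 95% interval 34.8 to 93.3). The share was 63.2% over all pairs of named miRNAs and 40.6% over all pairs. With 1 library per plant type there was no test, and the interval is wide enough to hold both values. Of the 10 pairs, 9 belong to miR6030, whose sites hold 6 distinct sequences. The interval treats the pairs as independent, which they are not, so it is approximate.

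The sites of miR6030 were close to the full complement of the miRNA. Each deposited score equalled 1 for every mismatch or unpaired base plus 0.5 for every wobble, in all 997 records whose sites hold no N. Lower scores therefore mean fuller pairing. The sites of BnaAnng03870D, BnaC08g21550D and BnaCnng64090D had a score of 0.5, with a single wobble. Those of BnaC08g15510D and BnaC08g41710D had a score of 1, and BnaC08g48650D, BnaC08g41330D and BnaA01g35670D had 1.5. The exception was BnaCnng50410D, with a score of 4 and a P-value of 0.014, whereas the other 8 had P-values listed as 0. A score of at most 1.5, a limit set after the values were seen, was held by 8 of 9 miR6030 records in the normal library. That compares with 44.3% of all named records there, and with 4.15% of those of predicted miRNAs.

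Differences from the full complement lay mainly towards the 3′ end of the miRNA. They are given as the base of the full complement, the position counted from 1 at the 5′ end of miR6030, and the base of the site. The wobble C18T was found in 5 of the 9 sites, 3 of which have the same sequence. The mismatch G16C was found on BnaC08g15510D and BnaC08g41710D, and G22A on BnaC08g41330D and BnaC08g48650D. In the seed there was 1 difference, T4G on BnaA01g35670D, and at position 1 there was the wobble A1G on BnaC08g41330D. The outlying BnaCnng50410D had T13C, G16A and G20A, and no base opposite position 18. Positions 5 to 12, a range read from these same sites that includes the middle where cutting takes place, were paired in all 9. Of the 22 positions, 15 were paired throughout. The 9 sites hold only 6 distinct sequences. No listed record of any miRNA scored above 4.5, so all listed sites are closely paired. Pairing by position was not counted for the other records.

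**Figure D4:**
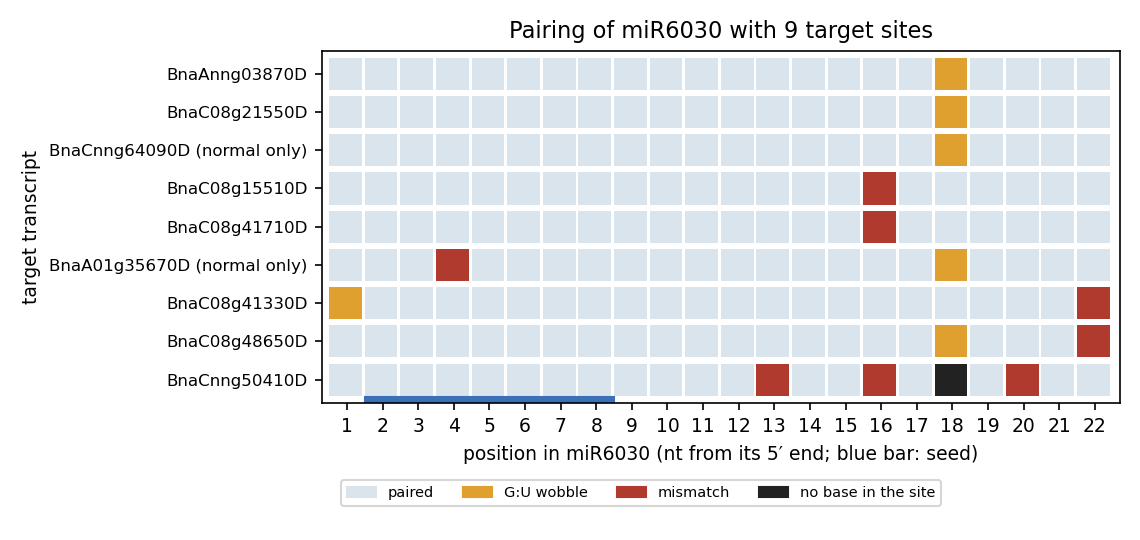
Pairing of miR6030 with its 9 target sites, 1 row per transcript ordered by score and 1 column per position from the 5′ end of the miRNA; pale cells are paired, orange cells are G:U wobbles, red cells are mismatches and the black cell has no base in the site. Coloured cells gather at positions 16, 18 and 22, and no cell from 5 to 12 is coloured.

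Transcripts with the same site could not always be told apart by their records. The 22-nt site was identical in BnaAnng03870D, BnaC08g21550D and BnaCnng64090D, and the last 2 also had the same cleavage position, 599. Yet BnaCnng64090D was in category 0 and listed in the normal library alone, while BnaC08g21550D was in category 1 in both libraries. Degradome tags are short, so tags of such copies may be shared, and their assignment is not described in the labels or files. By name, 5 of the 9 targets carried the code C08, for chromosome C08 in the naming of B. napus loci, and 2 carried Cnn and 1 Ann, for unplaced sequence. The code C08 was carried by 43 of all 568 target transcripts, or 7.57%.

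The categories of the miR6030 records were 0 or 1 in every case, which was common among named miRNAs. Of 318 named records in the normal library, 243 were in category 0, 24 in 1, 49 in 2 and 2 in 3. Of 307 in the rod-like library, 275 were in category 0, 28 in 1, 0 in 2 and 4 in 3. In the normal library 4 of 9 were in category 0, or 44.4% (exact binomial 95% interval 13.7 to 78.8). In the rod-like library it was 3 of 7, or 42.9% (9.90 to 81.6). Over all records, category 0 held 47.9% of the normal and 54.2% of the rod-like ones, and over those of named miRNAs 76.4% and 89.6%. The 4 in category 0 were BnaC08g15510D, BnaC08g41330D, BnaC08g41710D and BnaCnng64090D. Of these, BnaC08g15510D and BnaC08g41710D had the same site sequence. The records are thus not independent, and both binomial intervals are approximate. Neither the labels nor the files define these categories.

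The record of miR1140 was found in the rod-like library alone, at position 426 of BnaA01g02940D, in category 1 with a score of 3.5 and a P-value of 0.01. Its pairing was looser than that of 8 of the 9 miR6030 sites. The site had no base opposite position 8, the last of the seed, the mismatches G12C and C19A, and the wobble A16G, counted from the 5′ end of miR1140. The small RNA level of miR1140 was 1871 RPM in rod-like against 1112 RPM in normal apices, with a ratio of 1.19 when scaled on known miRNAs alone. The rod-like library listed 7 targets of miR6030 and the normal library 9. Whether the number of listed records follows the small RNA level was not tested. The records carry no tag counts, so the amount of cut transcript was not compared.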

How the data were processed

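For known and predicted miRNAs the authors deposited whole-number counts. Per the file headers, each degradome record gives a score, category, P-value and cleavage position with the aligned sequences. Small RNAs were gel purified, ligated and amplified before sequencing, and degradome ends were ligated at 5′ monophosphates and cut with MmeI, per the labels' protocols. The mapper, the target caller and the handling of reads that fit several miRNAs are not stated in the labels or files. The members and lists were chosen with earlier results of these data known.

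Counts of all 401 miRNAs were fitted together in R 4.3.3 by edgeR 4.0.16 with TMM factors, the filterByExpr filter, robust quasi-likelihood fitting and Benjamini-Hochberg adjustment, at 0.05. DESeq2 1.42.0 was an alternative. Ratios and their intervals use mean counts per file, and levels use summed counts. The depth of the libraries is not known beyond the listed counts. Every member and every degradome record of a member was named or counted; likeness was sought among known miRNAs averaging at least 100 counts. Alternatives covered scaling, filter, test, a replicate block, each file left out and the definition of a degradome pair. The edgeR step was tested on simulated data. Sequences were read from the degradome records with Python 3.11.15, pandas 2.3.3 and SciPy 1.17.1.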

Additional observations from a re-analysis of the deposited data

How the results depend on the processing

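The count of members past the threshold stayed between 5 and 7 of 8 in the 10 alternatives run. The count of members at least 1.5-fold different, by intervals on mean counts, was 2 with scaling on known miRNAs alone, against 5. Their summed ratio was 1.12 with the total listed count and 0.830, in the other direction, with scaling on known miRNAs alone, against 1.17. Over all miRNAs the count of 110 became 45 of 65 tested on known miRNAs alone, 57 with DESeq2's Wald test and 71 to 87 with 1 file left out, where leaving out normal replicate 1 gave 71. With the total listed count 55 were higher and 58 lower, against 65 and 45. File numbers do not pair the samples by the labels, and deviations of same-numbered files correlated at -0.09; a replicate block gave 53 calls, 39 higher and 14 lower, with 6 members among them. The log2 fold change of miR6028 ran from -0.057 to 0.0043 with 1 file left out, against -0.04, and was above 0 without normal replicate 1. On known miRNAs alone it was -0.54 and past the threshold. The call of miR9569 was lost with DESeq2's Wald test (adjusted p = 0.0603), and its adjusted p ranged from 0.000638 to 0.0603 over the alternatives. The shares of shared pairs and of category 0 were unchanged under the alternatives tried. These removed or merged no member record, so they could not test the stability of the shares. The cause of these shifts was not tested. Members under 50 mean counts in normal files, miR6034, miR9409 and miR9569, have the widest intervals.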
